A study of Mus musculus with 22 samples.

Results

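The AP-1 (activator protein 1) family was followed through the open chromatin of mouse adipocytes with 10 genes taken by name: Fos, Fosb, Fosl1, Fosl2, Jun, Junb, Jund, Batf, Atf3 and Maff. They are 10 of the 21938 protein-coding genes whose loci were measured. A locus here is the gene as annotated on the mouse build GRCm38 plus 20 kb on either side, and the measurements are the ATAC-seq peaks that overlap it. ATAC-seq marks DNA that a transposase can reach.

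The study asked whether chromatin changes made by obesity stay in adipocytes after weight loss, in 22 libraries that each came from 1 animal. All mice, controls included, carried the AdipoERCre transgene, in which the adiponectin (Adipoq) promoter drives a tamoxifen-inducible Cre, and the NuTRAP reporter, and all received tamoxifen before the diets began. Cre switches the reporter on, so that biotin tags the nuclei of the cells that were adipocytes at that time, and these nuclei were taken from epididymal fat. The label therefore depends on Cre activity at the time of tamoxifen, and fat cells formed later from unlabelled precursors would not carry it. In the short arm, C mice (3 libraries) ate control diet to 18 weeks of age and H mice (3) ate high-fat diet (HFD) for 12 weeks to the same age. CC_s mice (3) were 26-week-old controls, and HC mice (3) lost weight on 8 weeks of chow after 12 weeks of HFD, at 26 weeks of age. In the long arm, CC_l mice (2) were controls at 31 weeks, HH mice (3) had 25 weeks of HFD at 31 weeks, CCC mice (2) were controls at 39 weeks, and HHC mice (3) had 25 weeks of HFD and then 8 weeks of chow at 39 weeks. The labels give chow for every control group. By the study's methods this was a low-fat diet, which was replaced in CC_s and CCC by the standard chow of the weight loss groups in the last 8 weeks. H and HH are the obese groups, and HC and HHC the weight loss groups.

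AP-1 is a dimer of basic leucine zipper (bZIP) proteins, most often a Fos protein with a Jun protein, that binds the element TGANTCA, with C or G in the middle, and related elements. Fos, Fosb, Jun and Junb are immediate early genes: their promoters are held ready and are switched on within minutes by growth factors, cytokines and stress, through the MAP kinases that phosphorylate Jun and the ternary complex factors at Fos. Fosl1 and Fosl2 encode the Fos-related antigens Fra-1 and Fra-2, Jund encodes a Jun protein with more constant expression, Atf3 is a stress-induced repressor, Batf is known for its work in lymphocytes, and Maff is a small Maf protein that lacks an activation domain. In adipocytes, members of the family act in early differentiation and in the response to inflammation.

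The peak lists held 40528 to 60523 peaks per library. The 12 adipocyte marker genes had a peak over an annotated start at 11 or 12 of 12 genes in every library. Macrophage markers had 1 to 6 of 12, lymphocyte markers 0 to 3 of 11, and endothelial, stromal and mesothelial markers 2 to 7 of 12. The contrast of a library was taken as its enrichment ratio, the median maximum signal of its peaks divided by the lowest maximum signal. It was 6.82 to 8.92 in C and 4.7 to 6.4 in H, so that every H library was below every C library. Libraries HC 3 and HHC 3, at 2.43 and 2.25, stood apart from the other 20, whose ratios began at 3.67. The counts called after weight loss, and the differences named there, are given below with and without them.

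The genes lie on 8 chromosomes, and only the Fos locus holds no other annotated gene. Of the Fos genes, Fos is at chr12:85473890-85477273 on the plus strand, Fosb at chr7:19302696-19310051 on the minus strand, Fosl1 at chr19:5447547-5455946 on the plus strand and Fosl2 at chr5:32135801-32157842 on the plus strand. Of the Jun genes, the intronless Jun is at chr4:95049034-95052222 and Junb at chr8:84974484-84978718, both on the minus strand, and Jund is at chr8:70698949-70700616 on the plus strand. Batf is at chr12:85686669-85709087 and Maff at chr15:79346621-79359076, both on the plus strand, and Atf3 is at chr1:191170296-191218039 on the minus strand. The Fosl1 locus is the most crowded of the Fos loci, with 7 other genes that include Ccdc85b, Fibp, Ctsw and Efemp2, and the Junb locus holds 5, Hook2 and Prdx2 among them. Signal at these loci can belong to the neighbours.

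Peak summits, the points of highest coverage, recurred at fixed places. At Fos a summit was present in 22 of 22 libraries at 3 sites, which are 18.5 kb upstream of the start, 0.185 kb upstream of it, and 12.2 kb downstream of it. The upstream site was the highest summit of the Fos locus in 20 of the 22 libraries, and the promoter in the other 2. Fosb had a 22-library site 17.3 kb upstream of its nearest start, in an intron of the neighbouring gene D830036C21Rik. Jun and Jund each had 1 site with a summit in all libraries, at 0.078 and 0.139 kb upstream of the start and in all 22 libraries the highest summit of the locus lay within 1 kb of the start. Atf3 had 2, at 0.182 and 6.36 kb upstream of its nearest annotated start. Batf had none near its start, and its 22-library site lay 19.0 kb downstream inside the gene. At Maff the 2 sites with a summit in all libraries were far from the gene's starts, 18.3 kb upstream in the Pla2g6 gene and 29.8 kb downstream in a Tmem184b intron.

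**Figure D1:**
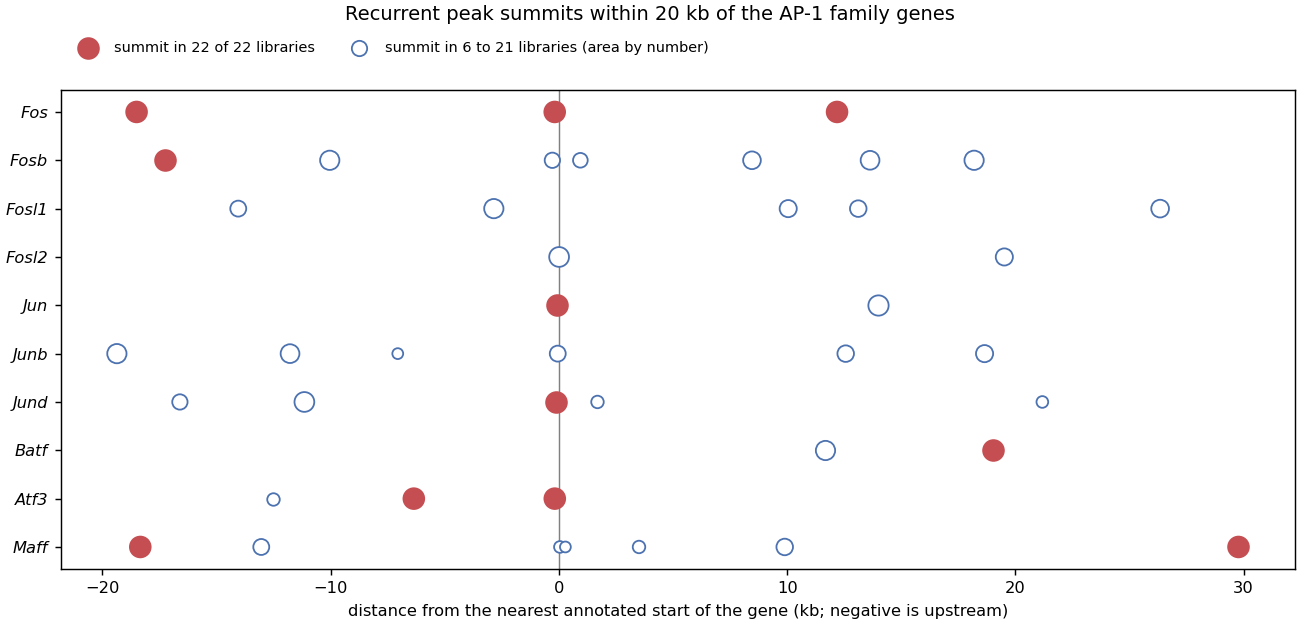
Recurrent peak summits at each of the 10 loci, by distance in kb from the nearest annotated start of the gene (negative is upstream). Filled points are sites with a summit in 22 of 22 libraries and open points sites in 6 to 21 libraries, with area by number. Jun and Jund are centred on their starts, and Batf and Maff have their filled points far from theirs.

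The sequences at these sites are shown with matches to 3 bZIP motifs in capitals, on either strand: TGANTCA (the AP-1 element), TGACNTCA (the spaced element that Jun and ATF dimers bind) and TGACGT (the core of the cAMP response element, which is also found within TGACGTCA). Promoters are the 250 bases before the start in RefSeq's entries on GRCm38, which matched 9 of the 10 genes, all but Fosl1. The windows are 200 bases around a summit, read from GRCm38 on the strand of the gene. The Fos promoter lies at chr12:85473640-85473889 and the Jun promoter at chr4:95052223-95052472. The Fos site 18.5 kb upstream is at chr12:85455285-85455484, the Fosb site 17.3 kb upstream at chr7:19327231-19327430 and the Maff site 29.8 kb downstream at chr15:79377738-79377937. These 5 are shown because they were open in every library, and the 2 promoters because Fos and Jun are the founding pair of the family. The last window, at chr5:32103246-32103445, holds the most frequent highest summit of the region upstream of Fosl2 whose signal was lower in obese mice, described further on. It lies 32.5 kb upstream of the Fosl2 start, outside the locus, and held that summit in 11 of 22 libraries.
Fos promoter: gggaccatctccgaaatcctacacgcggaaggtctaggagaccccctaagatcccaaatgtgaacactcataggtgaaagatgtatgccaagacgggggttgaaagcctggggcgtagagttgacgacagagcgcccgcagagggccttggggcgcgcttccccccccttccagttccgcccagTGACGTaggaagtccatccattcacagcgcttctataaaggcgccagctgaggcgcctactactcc
Jun promoter: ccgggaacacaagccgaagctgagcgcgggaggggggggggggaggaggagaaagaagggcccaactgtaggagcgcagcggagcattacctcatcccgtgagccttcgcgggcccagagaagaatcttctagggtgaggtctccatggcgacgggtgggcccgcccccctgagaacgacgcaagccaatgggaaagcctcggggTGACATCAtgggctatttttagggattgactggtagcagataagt
Fos upstream site: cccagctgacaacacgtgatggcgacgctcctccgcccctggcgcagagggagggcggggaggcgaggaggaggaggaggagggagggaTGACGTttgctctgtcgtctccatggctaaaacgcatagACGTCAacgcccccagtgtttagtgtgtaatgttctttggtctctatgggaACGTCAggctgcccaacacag
Fosb upstream site: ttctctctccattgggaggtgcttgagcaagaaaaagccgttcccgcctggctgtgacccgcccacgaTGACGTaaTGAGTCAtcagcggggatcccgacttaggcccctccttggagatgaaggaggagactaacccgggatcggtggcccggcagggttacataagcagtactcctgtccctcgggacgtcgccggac
Maff downstream site: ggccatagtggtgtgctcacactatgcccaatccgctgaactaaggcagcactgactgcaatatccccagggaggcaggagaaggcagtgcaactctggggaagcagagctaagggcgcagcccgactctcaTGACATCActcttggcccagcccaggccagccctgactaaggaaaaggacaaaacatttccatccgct
Fosl2 upstream site: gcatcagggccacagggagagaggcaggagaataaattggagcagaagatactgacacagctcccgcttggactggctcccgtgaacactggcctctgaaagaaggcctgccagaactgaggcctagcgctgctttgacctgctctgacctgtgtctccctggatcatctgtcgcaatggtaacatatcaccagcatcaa
The Fos promoter held 1 TGACGT, 66 bases before the start, and the Jun promoter held the spaced element TGACATCA 45 bases before it. The Fos upstream site held 3 copies of TGACGT. The Fosb and Atf3 upstream sites each held a TGAGTCA beside a TGACGT, and the Fosl2 window held none of the motifs. Over the 7 windows at 22-library sites more than 1 kb from a start, TGANTCA was found in 2, TGACNTCA in 1 and TGACGT in 4. In 200-base windows at 104649 of the 104657 union regions the shares were 7.34%, 4.30% and 2.69%, and in 32851 RefSeq promoters they were 6.75%, 7.49% and 6.47%. The union regions include regions that are not open in every library, so the 7 windows have no like background here. These are matches of letters, and binding was not measured.

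A peak covered an annotated start of Fos, Fosb, Fosl2, Jun, Junb, Jund and Atf3 in 22 of 22 libraries, while 47.9% to 59.7% of all protein-coding genes had such a peak in a library. The height of this start-site peak is its maximum signal, the highest coverage at any base, which does not depend on the length of a gene. The Jun start-site peak was above 98.7% to 99.9% of all peaks of its library in height, and that of Jund above 97.4% to 99.5%. Atf3 followed at 85.5% to 99.3%, with Fosl2 at 82.5% to 97.2%, Fosb at 81.0% to 96.3%, Junb at 78.1% to 99.5% and Fos at 69.2% to 99.3%. The ranges of these last 5 genes overlap. The Junb summit lay within 1 kb of its start in only 14 libraries, so not every Junb height is that of its start. Maff had a start-site peak in 21 libraries, with a median percentile of 54.6, but the summit lay within 1 kb of the Maff start in only 15. In C 3, CC_s 2, HC 1 and HHC 2 it was the site 29.8 kb downstream, so the Maff height there is not that of its start. Fosl1 had it in 16 libraries, but the summit lay within 1 kb of the Fosl1 start in only 4. Batf had it in 1 library, HH 1, with a maximum signal of 18. The starts of Fos, Fosb, Fosl2, Jun, Junb, Jund and Atf3 were thus under a peak in every lean, obese and formerly obese mouse.

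To compare groups, the total signal of the peaks at each locus (coverage summed over the bases) was taken on the log2 scale, and each library's loci were mapped by rank to the mean values of the 22 libraries. This is called the locus level below. All loci with signal were tested together with limma and p-values were adjusted over them. A lower level can mean that fewer nuclei had the site open or that it was less open in each, and bulk libraries cannot tell these apart. Each comparison sets a group beside controls of the same age, and all 10 genes were tested in all 6 comparisons.

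Fos was the only one of the 10 loci that passed the test in obese mice. Its level was 18.02, 18.04 and 18.20 in C, and 18.39, 18.71 and 18.41 in H. In the long arm it was 18.05 and 18.29 in CC_l, and 19.15, 18.62 and 18.51 in HH. Every obese library was above every control of its age. The difference over both arms, with the arm as a term and 11 libraries, was +0.49 ± 0.13 (SE; limma, adjusted p = 0.0274). In the single arms it was +0.42 ± 0.14 (adjusted p = 0.102) for H and +0.59 ± 0.24 (adjusted p = 0.431) for HH. The highest Fos level of all, in HH 1, came with the lowest enrichment ratio of these 11 libraries, 3.75. Without HH 1 the difference was +0.41 (adjusted p = 0.0171). The call held in 9 of 22 alternatives. It was lost with the maximum signal in place of the total, at +0.29 (adjusted p = 0.204), with summed-signal scaling, at +0.32 (adjusted p = 0.0731), and with the enrichment ratio as a further term, at +0.41 (adjusted p = 0.141). A flank of 5 kb (adjusted p = 0.114), no flank (adjusted p = 0.106), the 30000 strongest peaks (adjusted p = 0.0562), a fit of all libraries (adjusted p = 0.0524) and the replicate block (adjusted p = 0.0730) also ended it. So did leaving out C 1, C 2, H 2, CC_l 1 or CC_l 2, with adjusted p up to 0.0737. The share of all loci called in this comparison was 17.3%, so 1 of 10 is no more than the background.

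The other Fos genes did not pass, with differences on both sides of 0. Fosb, the closest relative of Fos, had a level of 18.51, 18.38 and 18.90 in C and 19.51, 18.82 and 18.90 in H, which overlap. In HH it was 19.05, 18.68 and 18.97, all above the 18.64 and 18.51 of CC_l. Its difference over both arms was +0.41 ± 0.15 and did not pass (adjusted p = 0.0781). Fosl1 had the widest spread of the family in controls, at 17.93, 18.80 and 19.52 in C, against 17.63, 17.99 and 17.69 in H. The difference was -0.99 ± 0.38 in the short arm (adjusted p = 0.138) and -0.68 ± 0.27 over both arms (adjusted p = 0.102). In no library did the highest summit of the Fosl1 locus lie within 1 kb of its start, so these values come largely from outside the Fosl1 promoter. Fosl2 differed by -0.14 ± 0.10 over both arms (adjusted p = 0.356).

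Among the Jun genes Jund was lower in obese mice in both arms, without passing the test. Its level was 18.79, 19.35 and 18.36 in C and 18.28, 17.80 and 18.31 in H. It was 18.52 and 18.50 in CC_l and 18.43, 18.36 and 18.28 in HH. Each obese library was below each control of its age, and the difference over both arms was -0.46 ± 0.19 (adjusted p = 0.107). The length of DNA covered by peaks at Jund went the same way. It was 35.1, 30.8 and 29.0 kb in C and 22.3, 11.2 and 18.8 kb in H. It was 17.3 and 24.6 kb in CC_l and 13.5, 16.3 and 13.8 kb in HH. Jun and Junb gave -0.16 ± 0.11 (adjusted p = 0.343) and +0.29 ± 0.17 (adjusted p = 0.247). Junb at 19.95 in HH 1 was again the highest level in any library.

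Of the remaining dimer partners, Batf differed by +0.22 ± 0.26, Atf3 by +0.09 ± 0.21 and Maff by -0.03 ± 0.16 over both arms, with adjusted p of 0.592 to 0.931. Their directions changed with the processing. Peaks covered 8.14, 10.1 and 9.02 kb of the Atf3 locus in C and 12.5, 14.7 and 12.0 kb in H, with no overlap. In the long arm they covered 7.44 and 7.69 kb in CC_l and 12.9, 11.9 and 7.08 kb in HH, which overlap.

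Counted over the family, 5 of 10 differences were above 0 and 5 below in obese mice over both arms, with a median of +0.03 beside -0.02 over all loci. At an unadjusted p under 0.05 there were 4 of 10, beside 33.5% of all loci. Scaling each library to the same summed signal, in place of ranks, shifted the median of all loci to -0.12 and the share of called loci that were higher from 55.2% to 36.9%. In the short arm alone 0 of 10 passed the adjusted test and 3 the unadjusted, beside 10.5% and 30.9% of all loci. In the long arm 0 of 10 passed either, beside 0% and 12.2%, with 17650 loci tested. The share of members called was thus at or below that of all loci in each comparison.

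**Figure D2:**
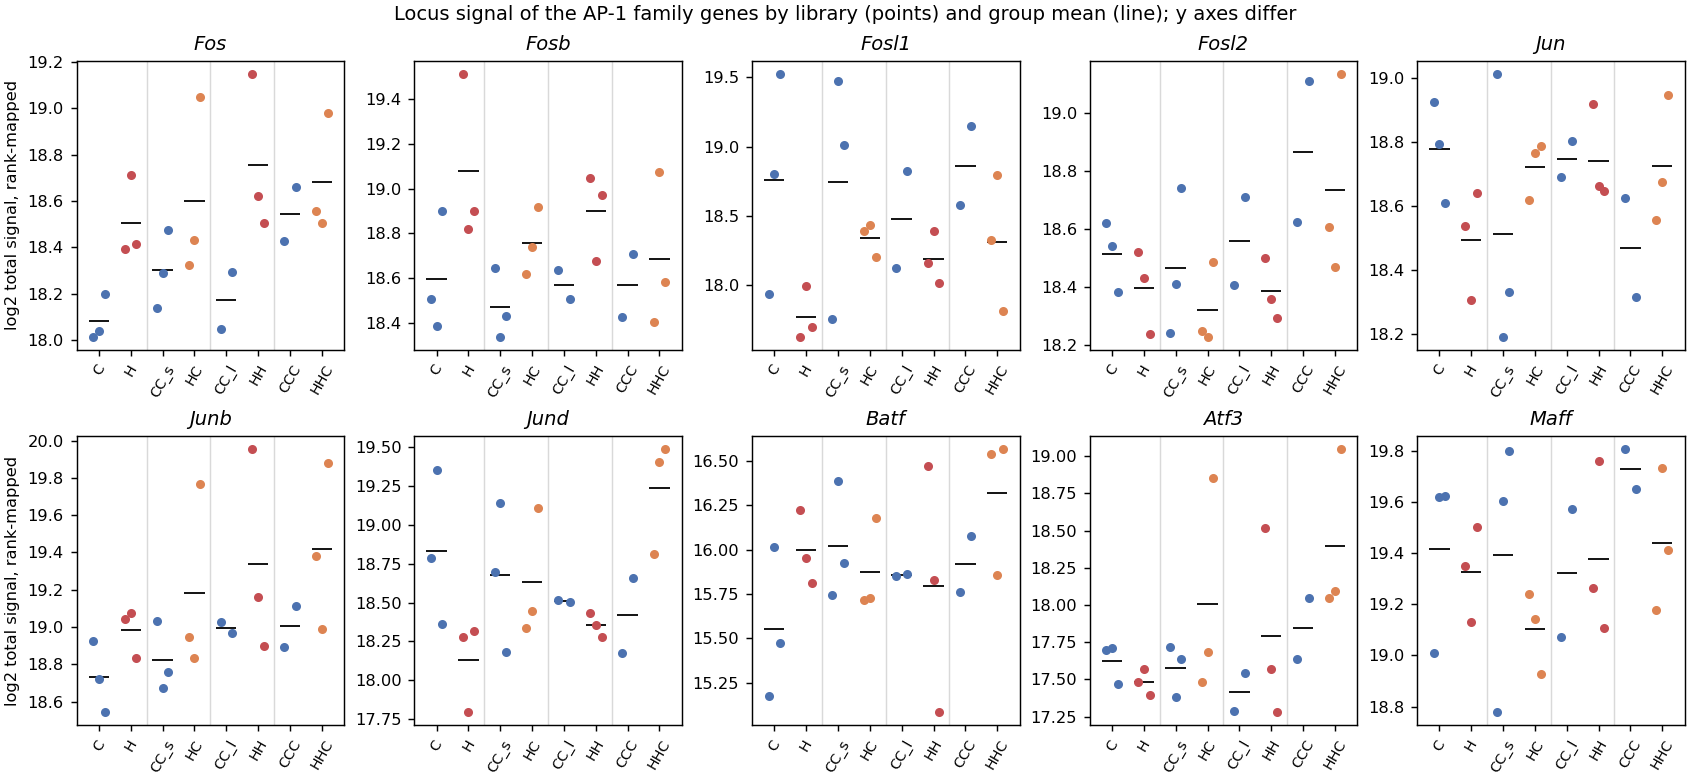
Locus level (rank-mapped log2 total signal) of the 10 genes in each of the 22 libraries, with the group mean as a line. Blue points are controls, red points obese and orange points weight loss groups, and the vertical lines part the age-matched pairs. The y axes differ between genes. Fos is higher in H than in C and in HH than in CC_l without overlap, and Jund is lower.

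**Figure D3:**
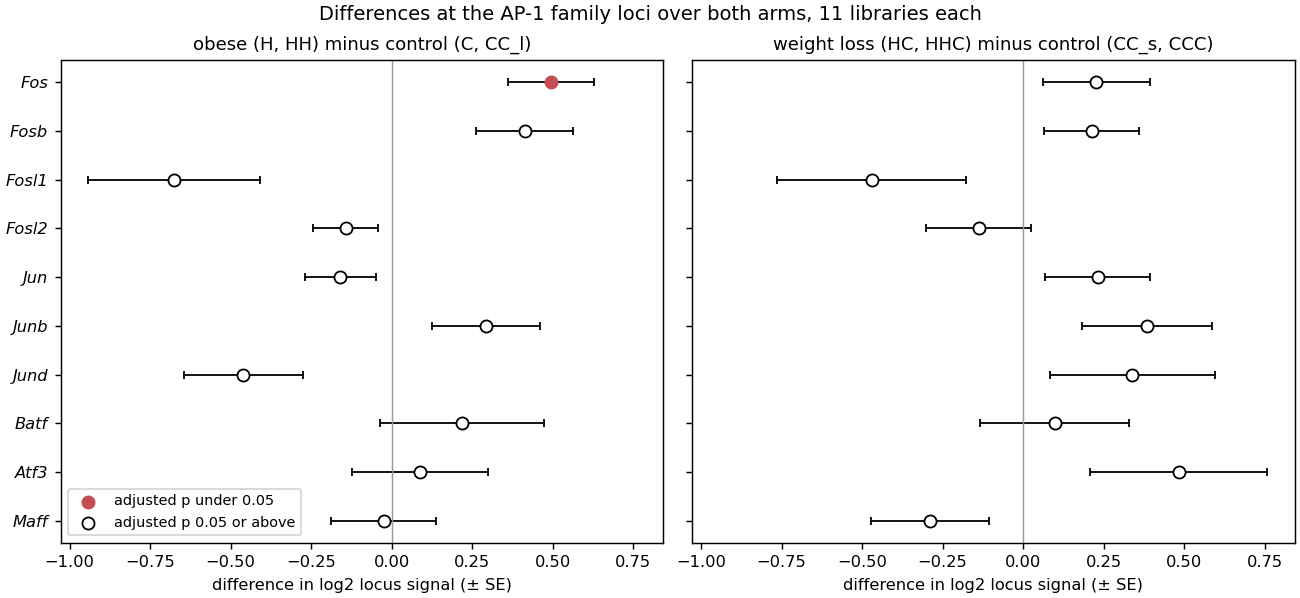
Difference in locus level from age-matched controls over both arms, with SE, for obese mice (left) and mice after weight loss (right), 11 libraries each. The filled point, Fos in obese mice at +0.49, is the only 1 of the 20 with an adjusted p under 0.05.

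The peaks of all libraries were next merged into union regions where they overlap, to ask which stretches of a locus moved. The 10 loci touch 31 regions, of which 20 to 22 had enough signal to be tested in a comparison. With a call set at an adjusted p under 0.05 and a log2 difference past 1 in either direction, 0 of 31 were called in any of the 6 comparisons. The share of all regions called was 8.28% in H, 0% in HH, 0% in HC, 0% in HHC, 6.16% in obese mice over both arms and 0.942% after weight loss over both arms. With the adjusted p alone, a rule added after the values were seen, 6 of the 21 regions tested passed in obese mice over both arms, beside 22.6% of all regions. 1 of the 6, upstream of Atf3, had enough signal to be tested only through the obese libraries, where it was high, and its pass is no test of a difference. In H against C 3 of 21 passed, beside 16.8%, and 0 to 4 passed when 1 library was left out. In the other comparisons 0 passed, beside 0% of all regions for HH, HC and HHC and 1.58% for weight loss over both arms. Without HC 3 and HHC 3, 0 member regions passed by either rule after weight loss. The shares of all regions were then 1.44% in HC, 0% in HHC and 1.9% over both arms with the fold, and 1.74%, 0% and 4.65% without it. Regions and loci share the same peaks, so they are views of 1 measurement.

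The clearest of these were a region upstream of Fosb and a region upstream of Fosl2, with opposite directions. The Fosb region, chr7:19314769-19365910, starts 4.72 kb before the nearest Fosb start, reaches past the locus, and contains D830036C21Rik, Ppp1r13l, Cd3eap and Ercc1, the last of which encodes a DNA repair endonuclease subunit. Its level was 18.35, 18.45 and 18.72 in C and 19.12, 19.18 and 19.07 in H. It was 18.67 and 18.45 in CC_l and 19.21, 19.08 and 19.19 in HH. All 6 obese libraries were thus above all 5 controls, in either arm, by +0.61 ± 0.09 (limma, adjusted p = 0.000715). Peaks covered a mean of 35.1 kb of it in H and 32.1 kb in C. With the maximum signal in place of the total the difference in H against C was +0.22 and did not pass (adjusted p = 0.300). With summed-signal scaling it was +0.41 there (adjusted p = 0.0875). Over both arms the adjusted p stayed under 0.05 in all 19 alternative analyses, with the highest at 0.0399. The adjoining region over the Fosb starts, chr7:19288892-19313238, was higher by +0.41 ± 0.09 (adjusted p = 0.00906), at 17.67 to 17.78 in C, 18.10 to 18.31 in H, 17.84 and 17.94 in CC_l and 18.00 to 18.33 in HH.

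The Fosl2 region, chr5:32074959-32118370, ends 17.4 kb before the Fosl2 start and overlaps Babam2, whose product belongs to a DNA damage response complex. Its level was 18.30, 18.16 and 18.02 in C and 16.95, 17.10 and 17.51 in H. It was 17.91 and 18.17 in CC_l and 17.12, 17.50 and 17.23 in HH. No obese library reached a control, and the difference was -0.87 ± 0.13 (limma, adjusted p = 0.000812). Peaks covered 22.6, 26.4 and 29.4 kb of it in C and 11.7, 12.4 and 14.9 kb in H. The call was lost in 1 of 19 alternatives, the maximum signal in place of the total (adjusted p = 0.122). The region over the Fosl2 start itself, chr5:32126663-32159236, differed by -0.08 ± 0.10 (adjusted p = 0.618). Most of the lower region lies outside the 20 kb flank, and no value here ties it to Fosl2 rather than to Babam2.

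Upstream of Fosl1, chr19:5403619-5438933 was lower by -0.62 ± 0.15 (adjusted p = 0.0102), with every obese library below every control of its age. It did not pass with the maximum signal (adjusted p = 0.459). The region over the Fos start, chr12:85449486-85494840, which holds all 3 recurrent Fos sites, was higher by +0.43 ± 0.12 (adjusted p = 0.0198). With summed-signal scaling the regions over the Fos start (adjusted p = 0.0882) and the Fosb starts (adjusted p = 0.129) did not pass. The Fos region also did not pass without H 2 or CC_l 1. With the enrichment ratio as a term neither passed, at +0.36 (adjusted p = 0.110) and +0.37 (adjusted p = 0.0547). The stretch upstream of Atf3, chr1:191227992-191232873, had a peak in 12 of 22 libraries, among them all 6 obese libraries and 1 of the 5 controls of this comparison, C 3. Its level was 14.79, 15.27 and 14.27 in H and 14.37, 14.79 and 14.05 in HH, against 14.07 in C 3 and the floor of 14.01 in the other controls. HH 3, at 14.05, was below C 3. It was too weak to be tested in HC or after weight loss over both arms.

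**Figure D4:**
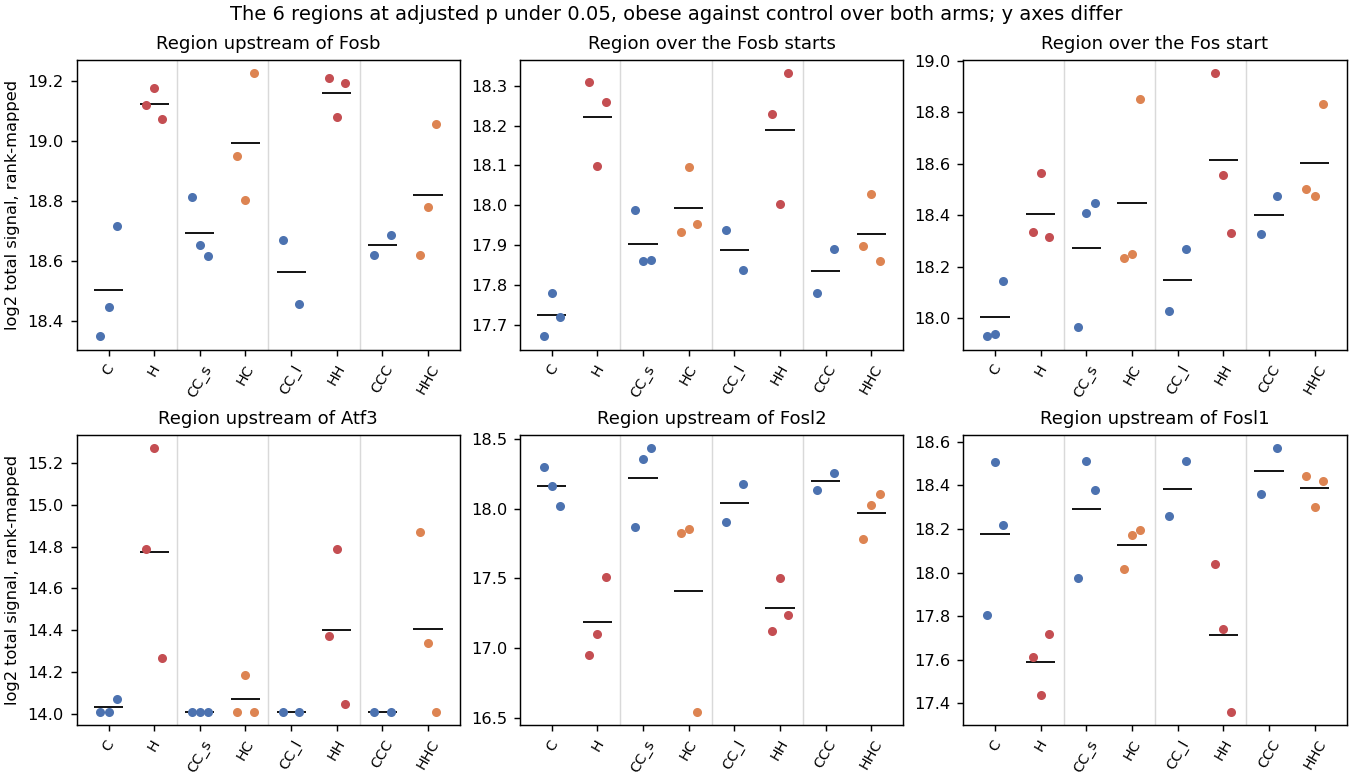
Level (rank-mapped log2 total signal) of the 6 regions with an adjusted p under 0.05 in obese mice over both arms, by library and group, with the group mean as a line. Blue points are controls, red points obese and orange points weight loss groups. Upstream of Fosb the red points lie between 19.07 and 19.21, above all blue points. Upstream of Fosl2 they lie between 16.95 and 17.51, below all blue points.

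The remaining regions over a start of the members did not pass over both arms. Differences in obese mice were -0.12 ± 0.11 at Jun (chr4:95044728-95056680), +0.28 ± 0.13 at Junb (chr8:84951763-84993090), -0.15 ± 0.08 at Jund (chr8:70643818-70724412), -0.08 ± 0.13 at Fosl1 (chr19:5443061-5501133), -0.24 ± 0.20 at Atf3 (chr1:191179481-191190271) and -0.01 ± 0.09 at Maff (chr15:79343381-79407407), with adjusted p of 0.135 to 0.919. A region over the Batf start was found in 1 library and that over the second Atf3 start in 2, which is too few to test.

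The start-site peaks were compared on their own, a layer added after the values were seen. As deposited, the maximum signal over the Jun start was 465, 536 and 588 in C and 235, 205 and 273 in H. At Atf3 it was 312, 383 and 415 in C and 108, 118 and 168 in H. Fosb, Fosl2, Junb and Jund were also lower in every H library than in every C library, and all peaks of the H libraries were lower as a whole, with a median maximum of 47 to 64 against 73 to 107. Divided by that median, the H libraries remained below the C libraries without overlap at Jun, Jund and Atf3, at 0.695, 0.745 and 0.546 times the C mean. Fosb, Junb, Fosl2 and Fos overlapped. The share of all start-site peaks without overlap was not counted, so the separation is not shown to be particular to these genes. With median scaling the median log2 difference of all genes in H against C was -0.37. In HH against CC_l only Jund did not overlap on this scale, at 0.773 times the CC_l mean, and in HHC against CCC Jun and Junb were higher without overlap, at 1.37 and 1.42 times the CCC mean, or 1.52 and 1.31 times without HHC 3. The summit of the Junb start-site peak lay within 1 kb of the start in 14 of 22 libraries, and in 1 of the 2 CCC libraries it did not.

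**Figure D5:**
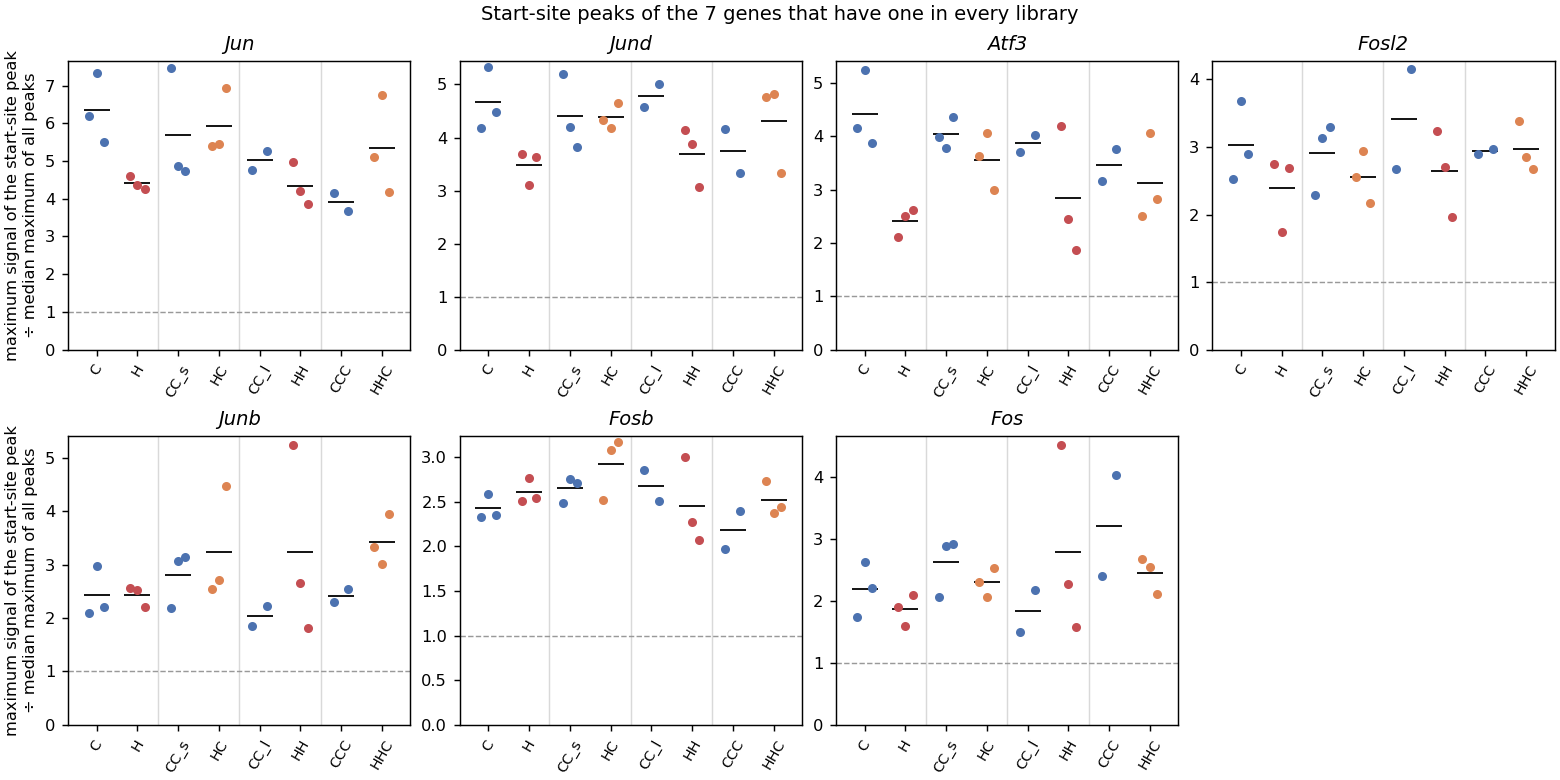
Maximum signal of the start-site peak divided by the median maximum of all peaks of the library, for the 7 genes with a start-site peak in all 22 libraries. Points are libraries in blue (control), red (obese) or orange (weight loss), lines are group means, and the dashed line at 1 is the median peak. Atf3, Jun and Jund are lower in H than in C without overlap, and the share of all start-site peaks without overlap was not counted.

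Mapped by rank over all protein-coding genes and tested with limma, 0 of the 9 start-site peaks measured passed in any comparison. The shares called over all genes were 1.1% in H, 0.275% in HH, 0.0557% in HC, 0% in HHC, 1.44% in obese mice over both arms and 0.0239% after weight loss over both arms. Without HC 3 and HHC 3 they were 0.0876% in HC, 0% in HHC and 0.0319% after weight loss over both arms, and again 0 of 9 passed. The members closest to the threshold in obese mice were Fosb at +0.35 ± 0.10 (adjusted p = 0.111), Junb at +0.59 ± 0.18 (adjusted p = 0.149), Fosl1 at -0.31 ± 0.13 (adjusted p = 0.295) and Atf3 at -0.30 ± 0.13 (adjusted p = 0.299). The Junb summit lay more than 1 kb from the start in C 1, C 3, CC_l 2, HH 2 and HH 3, so its difference does not compare 1 site. Jun, near the top of every library, differed by +0.01 ± 0.05. With heights scaled to the median peak in place of ranks, 3326 of 12395 start-site peaks were called in obese mice over both arms. Atf3 (-0.68), Jun (-0.37) and Jund (-0.39) were among them, all lower. The median of all genes shifted to -0.34, and 2.71% of the calls were higher against 59.6% by rank.

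After weight loss 0 of 10 loci passed in HC, in HHC or over both arms. The share of all loci called was 0% in HC, 0% in HHC and 0.0923% over both arms, or 16 of 17327. At an unadjusted p under 0.05 there were 0 of 10 in HC and over both arms and 1 of 10 in HHC, beside 8.91% of all loci in HC, 4.02% in HHC and 2769 of 17327 loci over both arms. Over both arms 7 of 10 differences were above 0, with a median of +0.22 beside -0.03 over all loci. Scaled to the same summed signal, Fos, Fosb, Jun, Junb and Jund turned below 0 as the median of all loci shifted to -0.25. Without HC 3 and HHC 3, 0 of 10 passed the adjusted or the unadjusted test in HC, in HHC or over both arms, beside 0%, 0% and 0.317% of all loci (55 of 17327 over both arms) by the first and 11%, 6.7% and 16.2% by the second. Then 6 of 10 differences were above 0, with a median of +0.07 beside +0.02 over all loci. The highest Atf3 levels of all were 19.05 in HHC 3 and 18.85 in HC 3, and Fos was at 18.98 and 19.05 and Junb at 19.88 and 19.77 there.

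The Fos groups overlapped after weight loss. Its level was 18.32, 18.43 and 19.05 in HC against 18.14, 18.29 and 18.47 in CC_s. In HHC it was 18.56, 18.50 and 18.98 against 18.43 and 18.66 in CCC. The difference over both arms was +0.23 ± 0.17 (limma, adjusted p = 0.475). Without HC 3 and HHC 3 it was +0.04 (adjusted p = 0.897), and it turned to -0.04 with the maximum signal and -0.12 with summed-signal scaling. Jund reversed its order in the long arm: HHC was at 18.81, 19.41 and 19.49 against 18.17 and 18.66 in CCC, all higher, by +0.82 ± 0.29 (adjusted p = 0.844), or +0.69 without HHC 3 (adjusted p = 0.747). In HC it was at 18.33, 18.45 and 19.11 against 18.70, 19.14 and 18.18 in CC_s, which overlap.

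The regions upstream of Fosb and Fosl2 were not called after weight loss. Upstream of Fosb, HC was at 18.95, 18.80 and 19.22 against 18.81, 18.65 and 18.62 in CC_s, and HHC at 18.62, 18.78 and 19.06 against 18.62 and 18.69 in CCC. The difference over both arms was +0.24 ± 0.12 (adjusted p = 0.308), and without HC 3 and HHC 3 it was +0.12 (adjusted p = 0.481). Upstream of Fosl2, HC was at 17.83, 17.85 and 16.54 against 17.87, 18.36 and 18.43 in CC_s, and HHC at 17.78, 18.03 and 18.10 against 18.13 and 18.26 in CCC. Every weight loss library was below every control of its age, by small margins apart from HC 3, and the difference was -0.55 ± 0.24 (adjusted p = 0.243). Without HC 3 and HHC 3 it was -0.34 (adjusted p = 0.146). The smallest p after weight loss over both arms was at the region over the Jund start, at +0.32 ± 0.13 (adjusted p = 0.231), or +0.18 without HC 3 and HHC 3 (adjusted p = 0.356).

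Whether the effect of weight loss differed from that of obesity, or that of the long arm from that of the short arm, was tested in 1 fit of all 22 libraries. No locus, region or start-site peak of the family passed. Over all features 0% of loci passed, with 0% to 0.229% of regions and 0.0224% to 0.0374% of start-site peaks. The smallest p was at the region over the Jund start, where the weight loss effect exceeded the obese effect by 0.47 ± 0.15 (limma, adjusted p = 0.196), or by 0.34 without HC 3 and HHC 3 (adjusted p = 0.202). For the region upstream of Fosb the weight loss effect was below the obese effect, at -0.38 ± 0.15 (adjusted p = 0.292). Without HC 3 and HHC 3 it was -0.49 (adjusted p = 0.0743), then the smallest p of the family. In that fit 0.586% of all regions, 0.305% of loci and 0.0149% of start-site peaks passed, and again no member. A difference that passed in obese mice and not after weight loss is therefore not shown to differ between them. Between control groups that differ in age and in the diet of the last 8 weeks, CC_s against C and CCC against CC_l, 0 of 10 loci passed, as did 0 of 17231 and 0 of 17362 loci in all.

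Across the 22 libraries the levels of Fos, Junb and Atf3 ran together, with Pearson's r of 0.82 for Fos and Junb, 0.85 for Junb and Atf3 and 0.75 for Fos and Atf3, as a description. Libraries HH 1, HC 3 and HHC 3 held the 3 highest levels of each of these genes and 3 of the 4 lowest enrichment ratios. Their levels ran against the enrichment ratio over the 22 libraries, with r of -0.77 for Fos, -0.88 for Junb and -0.79 for Atf3, and -0.14 for Jun. Fos and Jun, by contrast, gave r = 0.01. The genes on other chromosomes whose levels were most like a member's were Ssh1 for Fos (r = 0.92), Ifna11 for Fosb (0.81), Vgll4 for Fosl2 (0.80), Mkks for Jun (0.92), Hk1 for Junb (0.96), 4930442H23Rik for Jund (0.90), Pheta1 for Batf (0.81), Lmbrd2 for Atf3 (0.94) and Anapc11 for Maff (0.78). At r above 0.7 there were 1318 such genes for Atf3 and 1021 for Junb, but 15 for Maff and 20 for Fosb.

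Lists of genes around AP-1 were read in the same fit. Among 16 related bZIP factors, Bach2, a repressor that pairs with small Maf proteins, was higher (+0.45 ± 0.14, adjusted p = 0.0472) and Maf lower (-0.32 ± 0.10, adjusted p = 0.0498) in obese mice over both arms. Of 16 tested genes of the MAP kinase cascade that feeds AP-1, 1 passed, the phosphatase gene Dusp10 at +0.39 ± 0.09 (adjusted p = 0.0164). Of 12 other immediate early genes, Myc passed over both arms (-0.50 ± 0.15, adjusted p = 0.0434), and Myc and Ier5 passed in H against C, 16.7% of the list beside 10.5% of all loci. Over both arms the shares of these 3 lists lie between 6.25% and 12.5%, beside 17.3% of all loci. Of 13 tested textbook AP-1 target genes 3 passed, all higher, among them Cd44, a hyaluronan receptor (+1.35 ± 0.32, adjusted p = 0.0167), and the filament gene Vim (+0.36 ± 0.09, adjusted p = 0.0216). Their list had 12 of 13 differences above 0 and a median of +0.25 beside -0.02 over all loci, and 3 of 13 is 23.1% beside 17.3%. After weight loss over both arms 0 genes of any of these lists passed, with or without HC 3 and HHC 3.

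Some markers of cell types passed in obese mice over both arms, where 17.3% of all loci did. Of the adipocyte markers Fabp4 was higher (+0.81 ± 0.11, adjusted p = 0.00115) and Cfd, which encodes adipsin, lower (-1.24 ± 0.15, adjusted p = 0.000785), and 10 of 12 did not pass. Of the endothelial, stromal and mesothelial markers Cdh5 (+2.85 ± 0.41, adjusted p = 0.00161) and Lum (+1.63 ± 0.38, adjusted p = 0.0152) were higher, 2 of 10 tested. All 6 obese libraries had signal at both, but only 3 of the 5 controls at Cdh5 and 4 at Lum. Of the lymphocyte markers 3 of 8 tested passed, among them Nkg7, which was higher, and Cd4, which was lower. Of the 12 macrophage markers only 5 had enough signal to be tested, and 0 passed. The macrophage list made up 0.0186% to 0.0198% of the summed locus signal in C, 0.0180% to 0.0190% in H, 0.0167% to 0.0191% in CC_l and 0.0171% to 0.0193% in HH. The endothelial, stromal and mesothelial list made up 0.0280% to 0.0348%, 0.0286% to 0.0301%, 0.0280% to 0.0362% and 0.0292% to 0.0350% in the same groups, and the lymphocyte list 0.0295% to 0.0345%, 0.0256% to 0.0346%, 0.0274% to 0.0288% and 0.0213% to 0.0297%. The adipocyte list made up 0.295% to 0.422% in C, 0.318% to 0.398% in H, 0.370% to 0.394% in CC_l and 0.177% to 0.431% in HH. Its lowest shares over all libraries were 0.0986% in HHC 3, 0.127% in HC 3 and 0.177% in HH 1, followed by 0.222% in CCC 2. On this share the obese groups overlap their controls in each list. The mean log2 level of the 12 endothelial, stromal and mesothelial markers was 16.02 to 16.21 in C, 16.43 to 16.60 in H, 15.99 to 16.35 in CC_l and 16.41 to 17.21 in HH, without overlap. Without Cdh5 and Lum, over the other 10 genes, it was 16.30 to 16.61 in C, 16.46 to 16.52 in H, 16.38 to 16.67 in CC_l and 16.36 to 17.24 in HH, which overlap. The mean level of the lymphocyte list was lower without overlap, at 16.17 to 16.29 in C against 15.97 to 16.16 in H and 16.18 to 16.19 in CC_l against 15.99 to 16.09 in HH, and it did not overlap without its 3 called genes either. That of the macrophage list overlapped in both arms. It was 16.80 in HC 3 and 15.17 to 16.03 in the other libraries. Macrophage loci with signal numbered 11 of 12 in HH 1, HC 3, HHC 1 and HHC 3 and 10 in CCC 2, against 5 to 8 in the others. No library had a peak over a start of 1 of the 12 macrophage markers (Fcgr1). The same held for 5 of 11 lymphocyte markers (Cd3e, Cd4, Cd8a, Il7r, Ms4a1). The same held for 1 of 12 endothelial, stromal and mesothelial markers (Msln). The part of other cell types in the differences at Fos, Fosb and the AP-1 target genes was not tested.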

How the data were processed

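Open chromatin was profiled by ATAC-seq in 22 libraries, 1 mouse each. Per the labels and the study's methods, the authors trimmed reads with Trim Galore 0.6.6, aligned them to GRCm38 with Bowtie2 2.4.4, used SAMtools 1.13 and bedtools 2.30 for coverage, and called peaks in each library alone with SEACR 1.3 (stringent, threshold 0.01). The deposited values are signal: coverage summed over each peak (total) and its highest coverage (maximum), with no normalization stated. The depth of each library is not given in the sources used here, so no counting interval can be given. A wide peak counts whole at any locus it overlaps by 1 base.

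Peaks were summed over 21938 protein-coding loci (gene with 20 kb flanks) and 104657 union regions. Libraries were rank-mapped to common values, with floors of 14.06 for loci and 14.01 for regions. Groups were compared with limma 3.58.1 (trended eBayes, R 4.3.3), with arm as a term over both arms and Benjamini-Hochberg adjustment over all features. Loci were called at an adjusted p under 0.05, and regions also needed an absolute log2 difference above 1. The test was checked on simulated data. All 10 members were named, with regions over their starts and those of smallest p, the most similar gene on another chromosome, and up to 3 called genes per list. Naming regions by the adjusted p alone was added after the values were seen. The members and lists were chosen with earlier results of these data known. A few genes that the naming rule picks are not reported here.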

Additional observations from a re-analysis of the deposited data

How the results depend on the processing

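Under the alternatives, 677 of 766 single values kept their direction and side of the threshold, 41 lost and 12 gained an adjusted p under 0.05, and 36 reversed, while 333 of 369 counts stayed within 1.5 times. The causes were not tested. The count of member loci called in obese mice over both arms (1, Fos) was 0 with the maximum signal, no flank, summed-signal scaling, the 30000 strongest peaks, a fit of all libraries, the replicate block or the enrichment covariate, 2 with clipped signal (Fos and Fosb), 3 with array weights (Fos, Fosb and Fosl1), and 0 to 1 when 1 library was left out. With a 5 kb flank it stayed 1, but the gene was Junb (adjusted p = 0.0445), not Fos (0.114). Fos kept its call in 9 of 22 alternatives, with limma adjusted p of 0.0137 to 0.204.

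With array weights, member loci called were 1 in H against C, 4 in HC against CC_s and 1 after weight loss over both arms, against 0 in each, where array weights called 19.7%, 35.5% and 18.2% of all loci. Leaving out 1 library gave 0 to 1 in H against C (Fosl1 without C 1). Under the fold rule, the region upstream of Fosl2 was called, giving 1 region, in H against C with summed-signal scaling, the 30000 strongest peaks, or without C 3 or H 3 (0 to 1), and in obese mice over both arms with summed-signal scaling (1). By the adjusted p alone, regions in H against C numbered 1 with summed-signal scaling and 5 with array weights, where 21.4% of all regions passed. They numbered 0 to 4 there with a library left out (0 without C 2, 1 without H 1). They numbered 1, 2 and 1 with array weights in HH against CC_l, HC against CC_s and weight loss over both arms, where 1325, 6762 and 5288 of all regions passed, and 3 with the maximum signal or the enrichment covariate in obese mice over both arms, where leaving out a library gave 4 to 8. Start-site peaks called were 1 with median scaling in H against C, and 3 with median scaling, 1 with array weights and 0 to 2 with a library left out in obese mice over both arms (Atf3 and Junb without HH 1). Over all genes median scaling called 491 of 12422 in H against C and 3326 of 12395 over both arms, and array weights called 501 of 12395.

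Reversed values in obese mice were Maff at +0.011 (maximum signal), +0.21 (5 kb flank), +0.020 (30000 strongest peaks), +0.022 (replicate block), +0.21 (enrichment covariate) and -0.12 to +0.042 (library left out). Atf3 was at -0.082 (maximum signal), -0.045 (5 kb flank), -0.096 (no flank), -0.075 (array weights), -0.084 (enrichment covariate) and -0.081 to +0.17 (library left out), Batf at -0.029 (array weights) and -0.043 (enrichment covariate), and the Fosb start-site peak at -0.0059 (median scaling). After weight loss, Batf was at -0.030 (30000 strongest peaks), -0.11 (array weights), -0.093 (enrichment covariate), -0.035 (without HC 3 and HHC 3), -0.0036 (the same with clipped signal) and -0.015 to +0.22 (library left out). Fos was at -0.045 (maximum signal), -0.12 (summed-signal scaling) and -0.0022 (array weights), Fosb at -0.00094 (no flank) and -0.12 (summed-signal scaling), Fosl2 at +0.048 (no flank) and Maff at +0.087 (maximum signal). Jun, Junb and Jund were at -0.10, -0.0021 and -0.019 (summed-signal scaling).

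Over all loci, 2995 were called in obese mice over both arms, against 5100 with array weights, 1533 with the replicate block, 1476 with the enrichment covariate and 1269 with the maximum signal. After weight loss array weights called 3154 against 16. Replicate numbers did not pair the libraries, with correlations of -0.18 to 0.21 between same-numbered libraries. Under the replicate block Fos was at +0.54 (adjusted p = 0.073). The depth of each library is unknown, so weak sites cannot be told from shallow libraries.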
